A study of Mus musculus with 16 samples.

Results

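The genes followed here mark macrophages recruited to a fatty liver, and they were measured in whole-liver RNA: Trem2, Gpnmb, Spp1, Cd9, Cd63, Lgals3, Fabp5, Lpl, Itgax and Ly6c2. They were chosen with earlier results of these data known and taken by gene name, and all 10 were found among the 25719 genes of the deposited table. The 16 male mice, 8 to 12 weeks old, were either wild type (WT, C57BL6J) or Klrk1-/- and ate a normal chow diet (NCD) or a steatosis-steatohepatitis diet (SSD), which is rich in fat, fructose and cholesterol, for 3 weeks. Klrk1 encodes NKG2D, an activating receptor of NK cells and some T cells, and in the Klrk1-/- mice it is lost from every cell rather than from one cell type. There were 4 WT NCD mice, 5 WT SSD mice, 4 Klrk1-/- NCD mice and 3 Klrk1-/- SSD mice, each mouse giving 1 library, and neither the labels nor the study's methods for these mice state whether the genotypes were littermates.

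The healthy liver holds a large resident macrophage population, the Kupffer cells. When hepatocytes accumulate fat and die, monocytes enter from the blood and become macrophages, some of which gather around lipid-laden or dying cells and are called lipid-associated macrophages. These cells carry the receptor TREM2, which binds lipids and apolipoproteins and signals through the adaptor TYROBP to the kinase SYK, and they switch on lysosomal and lipid-handling genes. None of the 10 genes is made only by macrophages: Spp1 is also made by bile duct epithelium, Lpl by fat and muscle cells, and Cd9 and Cd63 by many cell types.

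Values are normalized read counts unless another scale is named. Libraries held between 19892025 and 28936707 reads on genes, and 3 reads or fewer were taken as the floor. Klrk1 itself averaged 23.2 ± 3.85 (SD, n = 4) in WT NCD and 46.1 ± 17.4 (n = 5) in WT SSD mice against 4.30 ± 3.33 (n = 4) in Klrk1-/- NCD and 2.29 ± 1.76 (n = 3) in Klrk1-/- SSD mice, with no overlap between genotypes. The tissue label held, since Alb was among the most abundant transcripts at a mean of 1249783 to 1832417 in the 4 groups, while the macrophage transcripts Adgre1 (F4/80) and Cd68 averaged 106.5 to 210.1 and 194.8 to 746.2. One library stood apart before any comparison was made: WT SSD mouse 1 had the highest level of its group for 10 of 10 members, from 1.49 times the median of the other WT SSD mice for Cd9 to 9.16 times for Gpnmb. Many values are therefore also given without it.

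The members lie on 9 chromosomes, and their positions, on GRCm39, come with the table of counts. Trem2 is at chr17:48653429-48661175, Itgax at chr7:127728719-127749829 and Ly6c2, on the minus strand, at chr15:74980007-74983819. Gpnmb (chr6:49013480-49047863) and Cd9 (chr6:125437229-125471754, minus strand) share a chromosome at distant positions. Cd63 is at chr10:128736858-128748691 and Lgals3 at chr14:47605208-47623617, the lipid-handling genes Lpl and Fabp5 are at chr8:69333143-69360100 and chr3:10077608-10081667, and Spp1 is at chr5:104582984-104588916. All 10 are annotated as protein coding. Antisense or overlapping non-coding transcripts are annotated over Cd63, Cd9, Fabp5, Gpnmb, Lpl, Spp1 and Trem2, and the sources used here do not state whether counting used strand, so reads of such pairs cannot be told apart. Ly6c2 has a near-identical neighbour, Ly6c1, whose group means of 3.41 to 6.5 were close to the floor, and reads that fit both genes may have been divided between them.

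Of the 8 members with a promoter entry, Trem2, Gpnmb and Itgax hold the same short sequence near their start sites. The other entries do not hold it. This sequence was among several searched, and any tie to the genotype differences was not tested. The promoters that hold it are shown to let its position be seen. The stretches run from 100 bases before to 20 bases after the start, are RefSeq sequences on GRCm38.p6, a different build from that of the counts, and lie on the plus strand at chr17:48346301-48346420 (Trem2), chr6:49036418-49036537 (Gpnmb) and chr7:128129450-128129569 (Itgax). Capitals mark the letters TGANTCA, the core bound by AP-1 factors, which is its own reverse complement.
Trem2: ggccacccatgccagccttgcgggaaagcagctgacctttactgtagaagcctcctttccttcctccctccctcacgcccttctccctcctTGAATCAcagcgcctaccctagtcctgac
Gpnmb: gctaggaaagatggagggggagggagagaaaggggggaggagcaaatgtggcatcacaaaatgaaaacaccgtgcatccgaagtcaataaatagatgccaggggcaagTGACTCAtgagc
Itgax: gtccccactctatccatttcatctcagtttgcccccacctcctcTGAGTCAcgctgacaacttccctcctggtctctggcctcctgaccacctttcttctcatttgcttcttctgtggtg

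Counted from the start site, the first base of the motif is at -9 in Trem2, at 9 in Gpnmb and at -56 in Itgax. Promoter entries were matched for 8 of the 10 members, in 10 rows, and were searched on both strands from 250 bases before to 50 bases after the start; 7.81% of the 32851 promoters searched in the same way hold TGANTCA. The PU.1 letters GAGGAAGT (3.2% of promoters) occur in Spp1, first base at -113, and in both Ly6c2 entries. No member's entry holds the lysosomal CLEAR letters TCACGTGA (0.974%), the E-box CACGTG that lies inside them (7.15%), the M-box TCATGTGA (0.986%) or the C/EBP letters TTGCGCAA (0.183%). A match is a description of these letters, not evidence of binding.

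**Figure D1:**
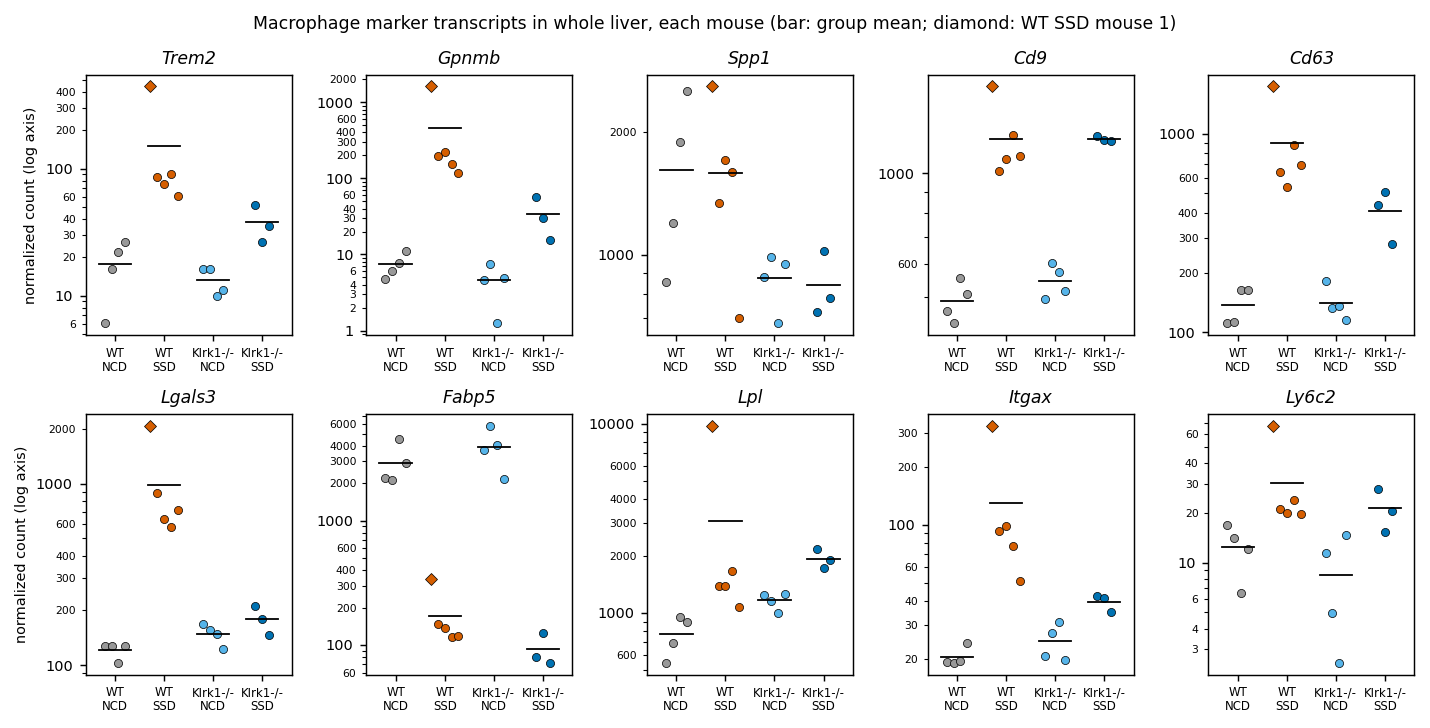
Normalized count of each of the 10 members (log axis) in every mouse of the 4 groups; bars are group means and the diamond is WT SSD mouse 1. Gpnmb lies between 4.82 and 11.03 in WT NCD and between 116.8 and 1613.5 in WT SSD mice, Lgals3 of the Klrk1-/- SSD mice (146.6 to 212.5) stays far under that of the WT SSD mice, and Fabp5 is lower in every SSD-fed than in every NCD-fed mouse.

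Per kilobase of gene length, the scale on which genes can be set beside each other, Spp1 (1521) and Fabp5 (1392) were the most abundant members in WT NCD livers. Cd9 (503), Lpl (291.5), Lgals3 (145.4) and Cd63 (112.9) followed, and Itgax (13.4), Ly6c2 (10.6), Trem2 (9.49) and Gpnmb (4.14) were scarce. Within the scarce set the per-kilobase ranges of Itgax, Ly6c2 and Trem2 overlapped. That of Gpnmb (2.69 to 6.15) overlapped those of Trem2 (from 3.24) and Ly6c2 (from 5.57). The order of the scarce set was thus not resolved, apart from Gpnmb lying under Itgax. Lgals3 (123.3 to 153.1) and Cd63 (91.1 to 134.1) overlapped as well. After SSD the mean levels per kilobase in WT mice were 1491 for Spp1, 1248 for Cd9, 1176 for Lgals3, 1154 for Lpl and 736.4 for Cd63. Gpnmb followed at 256.4, Itgax at 84.1, Trem2 at 81.4, Fabp5 at 81.2 and Ly6c2 at 25.95. Without mouse 1 the means of Spp1 (1255), Cd9 (1141) and Lgals3 (844.7) stayed high, and Cd63 was at 565.5. Lpl was then at 522.4, Gpnmb at 95.8, Fabp5 at 61.5, Itgax at 51.95, Trem2 at 42.0 and Ly6c2 at 18.1. In Klrk1-/- SSD livers Cd9 was again at 1248 per kilobase, but Lgals3 stood at 214.8, Gpnmb at 19.1 and Trem2 at 20.4.

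The first comparison asked what SSD does to these transcripts in WT livers. Of the 10 members, 8 rose, Fabp5 fell and Spp1 did not pass the test. Gpnmb, Trem2, Lgals3 and Cd63 rose most, by 6.02-fold (Cd63) to 32.5-fold (Gpnmb; 20.7-fold without mouse 1), and the rise covered receptors, lysosomal membrane proteins and a secreted lectin alike. Calls are at an adjusted p under 0.05 in limma, over all 13091 genes tested. At that threshold 17.3% of all genes tested were higher and 17.6% were lower, so 8 of 10 members higher is to be read against 17.3%. With all mice scaled to the same total the split of 2265 genes higher and 2303 lower became 6315 and 720, and the median of all genes moved to 0.34 on the log2 scale. The median log2 fold change of the members was 1.85, against about 0 for all genes (-0.002). In whole liver a change in the number of cells of a type and a change in RNA per cell cannot be told apart.

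Among the surface receptors, Trem2 measured 6.03, 16.1, 22.2 and 26.5 in the WT NCD mice and 445.1, 85.3, 75.2, 91.5 and 61.2 in the WT SSD mice. Every SSD-fed WT mouse was above every NCD-fed one, and mouse 1 lay far above the rest. The log2 fold change was 2.74 (SE 0.548, adjusted p = 0.00283, limma). Itgax, which encodes the integrin CD11c, measured 19.3, 19.1, 19.6 and 24.3 on NCD and 327.5, 92.9, 99.0, 77.3 and 50.6 on SSD, again without overlap, and rose by 2.28 on the log2 scale (SE 0.412, adjusted p = 0.00152). Ly6c2, a surface protein of inflammatory monocytes, measured 16.9, 14.1, 6.52 and 12.1 on NCD and 67.1, 21.1, 19.99, 23.98 and 19.6 on SSD. Its groups did not overlap either, but the gap was small next to the spread within NCD, and the rise of 1.11 (SE 0.401) passed only narrowly (adjusted p = 0.0483, limma).

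Gpnmb, a transmembrane glycoprotein of the lysosomal system, had the largest log2 fold change of the list. It measured 4.82, 6.04, 7.82 and 11.03 on NCD, from 4 to 10 reads, and 1613.5, 199.4, 218.9, 152.8 and 116.8 on SSD. Its log2 fold change of 5.02 (SE 0.613, adjusted p = 0.000102, limma) is on the log2(count + 1) scale, which understates the change of a gene with so few reads. Cd63, a tetraspanin of late endosomes and lysosomes, went from 110.9, 112.8, 162.9 and 163.3 to 1729.8, 641.2, 541.5, 875.0 and 697.3, a log2 fold change of 2.59 (SE 0.283, adjusted p = 4.60e-05). Its relative Cd9, a tetraspanin of the cell surface, measured 461.9, 430.9, 555.3 and 507.6 on NCD and 1628.1, 1011.3, 1084.9, 1238.3 and 1100.6 on SSD. Both tetraspanins separated the diets completely, and Cd9 rose by 1.29 (SE 0.135, adjusted p = 3.32e-05, limma) with the smallest SE of the list.

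The secreted members went different ways. Lgals3, which encodes the lectin galectin-3, measured 127.8, 127.9, 103.0 and 126.9 on NCD and 2088.5, 891.3, 634.8, 577.4 and 717.7 on SSD, and its log2 fold change was 2.83 (SE 0.302, adjusted p = 3.83e-05, limma). Spp1, which encodes osteopontin, measured 855.0, 1197.1, 1894.0 and 2519.3 on NCD and 2587.4, 1339.1, 1704.5, 1597.2 and 697.3 on SSD. The Spp1 groups overlapped almost fully, and its log2 fold change was -0.03 with a 95% interval of -0.81 to 0.75 (adjusted p = 0.958), so changes in either direction within that interval were not resolved. Lgals3 thus separated the diets where Spp1 did not.

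The lipid-handling members also moved in opposite directions. Lpl, which encodes the lipase that frees fatty acids from lipoproteins, measured 546.3, 691.7, 955.5 and 894.9 on NCD and 9754.3, 1388.1, 1394.2, 1674.5 and 1078.5 on SSD, without overlap. Mouse 1 alone was 7.01 times the median of the other SSD-fed WT mice, and the log2 fold change of 1.43 (SE 0.515) passed narrowly (adjusted p = 0.049, limma). Fabp5, a cytosolic carrier of fatty acids, measured 2193.7, 2138.5, 4515.3 and 2911.0 on NCD but 338.1, 148.7, 137.0, 116.4 and 117.6 on SSD. It was lower in every SSD-fed mouse, fell by 4.15 on the log2 scale (SE 0.305, adjusted p = 1.95e-06) and was thus 17.8-fold lower, the reverse of what the name of the list says.

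An exact two-sided permutation test of each member alone gave p = 0.0159, the smallest that 5 against 4 mice allow, for all members but Spp1 (exact p = 0.937). Groups that do not overlap, with SSD higher, were found for 13.5% of all genes tested, and 8 of the 10 members were among them. Without mouse 1, 7 members rose and Fabp5 fell: Lpl had a smaller log2 fold change with a smaller adjusted p (0.86, adjusted p = 0.00253, limma), and Ly6c2 no longer passed (0.79, adjusted p = 0.0734). Lpl and Ly6c2 also lost their calls when any of the 4 NCD mice, or SSD mouse 2, 3 or 4, was left out, with adjusted p of 0.0515 to 0.134 for Lpl and 0.0536 to 0.136 for Ly6c2, whereas the other 7 calls held under every limma fit with a mouse left out.

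**Figure D2:**
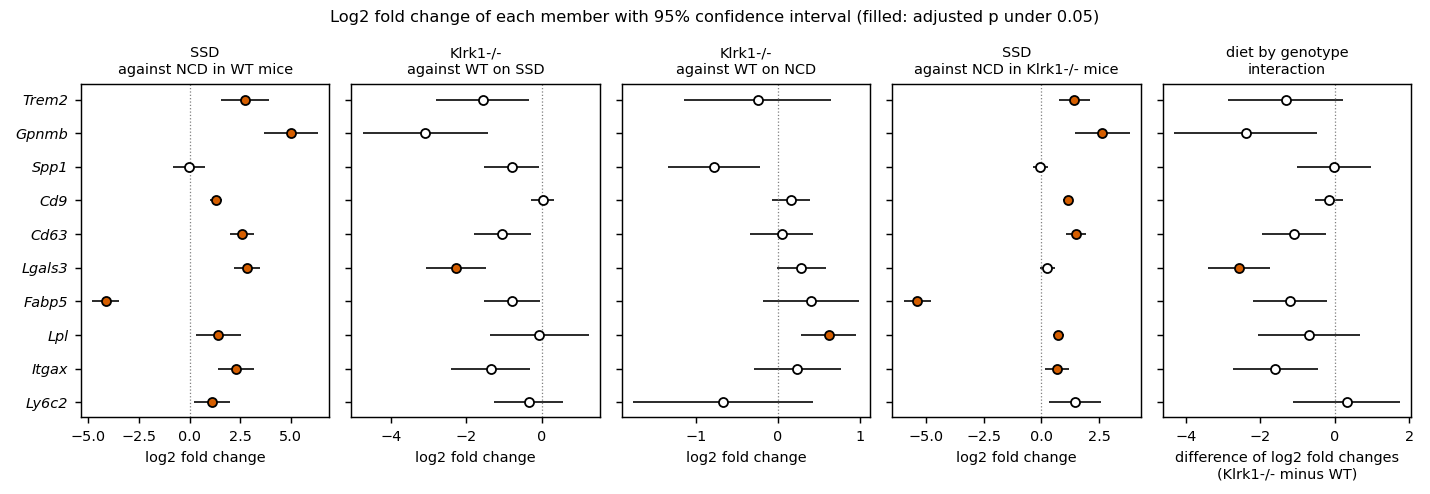
Log2 fold change of each member with its 95% interval in the 4 comparisons of groups, and, in the last panel, the difference between genotypes in the effect of SSD; filled points have an adjusted p under 0.05. In WT mice 9 of 10 points are filled, between Klrk1-/- and WT on SSD 1 is filled (Lgals3), and in the last panel Lgals3 is the only filled point, at -2.57.

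The second comparison asked how SSD-fed Klrk1-/- livers differ from SSD-fed WT livers. Lgals3 was the member that passed the test, 4.87-fold lower in Klrk1-/- mice. Trem2, Gpnmb, Cd63 and Itgax were also lower in each Klrk1-/- SSD mouse than in any WT SSD mouse but did not pass the adjusted test in the main fit. Without WT SSD mouse 1, Trem2, Gpnmb and Itgax passed it. More members than Lgals3 also passed in some fits that kept every mouse, such as that of all 4 groups in 1 model. Cd9 and Lpl, by contrast, had log2 fold changes close to 0. Over all 13116 genes tested, 1.22% were higher and 1.68% lower in Klrk1-/- mice. These shares rest on 160 genes higher and 221 lower, which became 15 to 28 and 30 to 59 when any one Klrk1-/- SSD mouse was left out. Without WT SSD mouse 1 they became 292 and 425, and 5.49% of all genes were called in place of 2.9%. One of 10 members lower is to be read against that 1.68%, and the 5 of 10 members whose groups did not overlap, with Klrk1-/- lower, against 8.74% of all genes.

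Lgals3 measured 212.5, 179.1 and 146.6 in the Klrk1-/- SSD mice, against 577.4 to 2088.5 in the WT SSD mice. The 3 Klrk1-/- mice were close together and did not overlap the WT SSD mice. They lay only somewhat above the WT NCD range of 103.0 to 127.9. The log2 fold change was -2.28 (SE 0.357, 95% interval -3.07 to -1.49, adjusted p = 0.0132, limma), and without mouse 1 it was -1.97 (adjusted p = 0.000143). Leaving out Klrk1-/- SSD mouse 1, 2 or 3 gave -2.41, -2.29 and -2.15 with adjusted p of 0.0637, 0.0599 and 0.0760, so that the call needed all 3 Klrk1-/- mice.

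Trem2 measured 52.2, 26.5 and 35.1 in Klrk1-/- SSD mice, from 33 to 54 reads. These mice lay between the WT ranges, the lowest of them, at 26.5, just above the highest WT NCD mouse (26.48). The log2 fold change was -1.57 (SE 0.555, adjusted p = 0.138, limma) with all mice and -1.06 (adjusted p = 0.0282) without WT SSD mouse 1. Gpnmb measured 56.98, 30.5 and 15.4, a log2 fold change of -3.09 (SE 0.749, 95% interval -4.75 to -1.43, adjusted p = 0.0586), and -2.44 (adjusted p = 0.00513) without mouse 1. Without WT SSD mouse 5, the lowest WT mouse, Gpnmb also passed (-3.38, adjusted p = 0.0401, limma), as did Spp1 (-1.07, adjusted p = 0.0272). The estimates kept their direction in these fits, while the calls changed with the WT mice included.

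Itgax measured 42.5, 41.8 and 35.1 in Klrk1-/- SSD mice, all under the 50.6 of the lowest WT SSD mouse. Its log2 fold change was -1.36 (SE 0.472, adjusted p = 0.132, limma), and -0.95 (adjusted p = 0.0395) without mouse 1. Cd63 measured 439.4, 506.7 and 276.8, all under the lowest WT value of 541.5. Its log2 fold change of -1.05 (SE 0.337, adjusted p = 0.113) became -0.78 (adjusted p = 0.0519) without mouse 1, so Cd63 was the one member of the 5 without overlap that passed in neither fit. Taken alone, each of these 5 members reached an exact two-sided permutation p of 0.0357, the smallest that 3 against 5 mice allow. That p follows from the lack of overlap by which the 5 were picked, and adds nothing to it.

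The remaining members overlapped between genotypes on SSD. Cd9 was nearly the same in all 3 Klrk1-/- mice (1233.3, 1203.8 and 1200.8), with a log2 fold change of 0.02 and a 95% interval of -0.29 to 0.33 (adjusted p = 0.943, limma). Lpl measured 2172.9, 1737.8 and 1895.9, above 4 of the 5 WT SSD mice and far under mouse 1, so its log2 fold change of -0.07 (95% interval -1.38 to 1.24, adjusted p = 0.957) became 0.50 (adjusted p = 0.0602) without that mouse. The direction for Lpl therefore rested on 1 mouse. Spp1 measured 724.3, 1020.7 and 783.4 with a log2 fold change of -0.81 (adjusted p = 0.186), and Fabp5 measured 80.2, 124.5 and 72 with -0.80 (adjusted p = 0.192). Ly6c2 measured 28.0, 15.3 and 20.6, 1 mouse below and the other two within the WT SSD range of 19.6 to 67.1 (-0.35, adjusted p = 0.640).

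**Figure D3:**
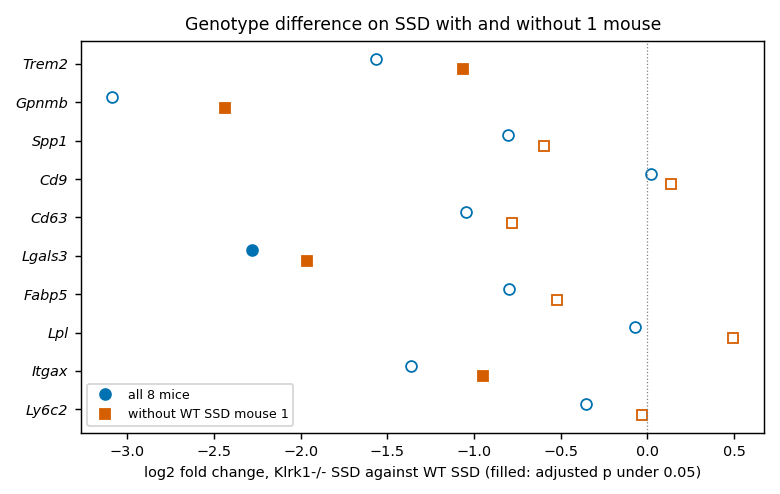
Log2 fold change of each member in Klrk1-/- SSD against WT SSD livers, with all 8 mice (circles) and without WT SSD mouse 1 (squares); filled symbols have an adjusted p under 0.05. With all mice 1 symbol is filled, without that mouse 4 are filled (Trem2, Gpnmb, Lgals3 and Itgax), and Lpl crosses 0 from -0.07 to 0.50. Over all genes tested, 2.9% were called with all mice and 5.49% without that mouse.

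In Klrk1-/- mice SSD still changed most members: 6 rose, Fabp5 fell, and Spp1, Lgals3 and Ly6c2 did not pass. Among all 12904 genes tested, 13.4% were higher and 16% lower. Cd9 measured 492.8, 603.5, 575.8 and 516.6 in Klrk1-/- NCD mice and rose by 1.15 on the log2 scale (SE 0.0911, adjusted p = 4.15e-06, limma), next to 1.29 in WT mice. Cd63, from 180.4, 133.1, 135.6 and 115.6, rose by 1.497 (SE 0.201, adjusted p = 0.000238). Trem2 and Gpnmb were low in Klrk1-/- NCD mice, at 9.95 to 16.2 and at 1.24 to 7.47, the latter from 1 to 6 reads. They rose by 1.42 (SE 0.309, adjusted p = 0.00544, limma) and 2.63 (SE 0.539, adjusted p = 0.00375). With all 4 groups in 1 model, which shares 1 estimate of the spread, Trem2 (adjusted p = 0.0685), Lpl (0.299) and Itgax (0.236) lost their calls in this comparison and Ly6c2 gained one (0.0495).

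The lipid-handling members moved as in WT mice. Lpl measured 1249.9, 1156.0, 1001.1 and 1260.8 on NCD and rose by 0.73 (SE 0.105, adjusted p = 0.000400, limma) without overlap. Fabp5 measured 3679.7, 5815.9, 4085.3 and 2164.9 on NCD and fell by 5.36 (SE 0.274, adjusted p = 1.27e-07), which is 41.0-fold lower. Itgax, at 20.7, 27.4, 31.1 and 19.7 on NCD, rose by 0.69 (SE 0.236, adjusted p = 0.0469), a call lost when any mouse but Klrk1-/- NCD mouse 3 was left out, with adjusted p of 0.0587 to 0.147.

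The members that did not pass differed in kind. Lgals3, the member that set the genotypes apart on SSD, measured 168.9, 155.5, 149.2 and 121.8 in Klrk1-/- NCD mice. The SSD range of 146.6 to 212.5 overlapped it, and the log2 fold change was 0.26 (95% interval -0.08 to 0.60, adjusted p = 0.225, limma). Ly6c2 went from 11.5, 4.98, 2.49 and 14.8 to values that were all higher, and its log2 fold change of 1.44 (SE 0.513) missed the threshold (adjusted p = 0.0540), though it passed without Klrk1-/- NCD mouse 1 (1.65, adjusted p = 0.045) or 4 (1.76, adjusted p = 0.0271). Spp1 did not pass here either (-0.05, 95% interval -0.37 to 0.26, adjusted p = 0.814, limma). With 3 against 4 mice the exact two-sided permutation test cannot go below 0.0571.

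Whether SSD acted differently in the 2 genotypes was tested directly, as the log2 fold change in Klrk1-/- minus that in WT mice over all 16 mice. Lgals3 differed, by -2.57 (SE 0.401, 95% interval -3.41 to -1.73, adjusted p = 0.00824, limma): its rise of 2.83 in WT mice stood against 0.26 in Klrk1-/- mice. One of 10 members lower compares with 0.559% of the 13068 genes tested, with 0.321% higher. Lgals3 remained called without WT SSD mouse 1 (-2.25, adjusted p = 8.45e-05) and in every other alternative fit. The differences for Gpnmb (-2.39, adjusted p = 0.200), Itgax (-1.60, adjusted p = 0.153), Trem2 (-1.32, adjusted p = 0.360), Fabp5 (-1.20, adjusted p = 0.212), Cd63 (-1.09, adjusted p = 0.189) and Lpl (-0.70, adjusted p = 0.606) were all below 0 but did not pass. Those of Cd9 (-0.14), Spp1 (-0.02) and Ly6c2 (0.32) were the smallest. Without WT SSD mouse 1 the difference was -1.74 for Gpnmb, -1.19 for Itgax, -0.82 for Trem2, -0.93 for Fabp5, -0.82 for Cd63 and -0.13 for Lpl, and -0.031 for Cd9, 0.18 for Spp1 and 0.65 for Ly6c2, with adjusted p of 0.0867 (Itgax) or more.

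On NCD the genotypes differed in 1 member. Lpl was higher in Klrk1-/- mice, at 1001.1 to 1260.8 against 546.3 to 955.5 in WT mice, a log2 fold change of 0.62 (SE 0.156, adjusted p = 0.0234, limma; exact two-sided permutation p = 0.0286, the smallest possible). That call was lost without WT NCD mouse 2 or Klrk1-/- NCD mouse 1, 2 or 4, with adjusted p of 0.0509 to 0.0661. It was also lost with all 4 groups in 1 model (adjusted p = 0.370, limma). In this comparison 6.41% of the 12845 genes tested were higher and 6.66% were lower, and 1 higher of the 9 members tested is to be read against the former. Spp1 was lower by its estimate, at 882.3, 984.2, 677.8 and 950.8 in Klrk1-/- mice (-0.78, adjusted p = 0.0638, limma). It passed without WT NCD mouse 1 (-1.05, adjusted p = 0.0165, limma) and by edgeR (-0.89, adjusted p = 0.0429). The bile duct keratin Krt19 averaged 67.4 ± 17.6 (SD, n = 4) in WT NCD and 32.8 ± 9.35 (n = 4) in Klrk1-/- NCD mice, a fall of 1.03 on the log2 scale (adjusted p = 0.0214), and its part in the Spp1 difference was not tested. Gpnmb was under the minimum mean of 10 here and was not tested.

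Other genes of the TREM2 pathway and of lipid-associated macrophages, a list of 24 from general knowledge, were then counted. This list too was chosen with earlier results of these data known. Counts of this and later lists are to be read against the shares of all genes called in the same comparison. With SSD these were 17.3% higher and 17.6% lower in WT mice, and 13.4% and 16% in Klrk1-/- mice. Between Klrk1-/- and WT mice they were 1.22% and 1.68% on SSD, and 6.41% and 6.66% on NCD. In WT mice SSD raised 14 of the 24 tested, with a median log2 fold change of 0.60. The matrix metalloprotease Mmp12 led with 5.14 (adjusted p = 3.53e-05, limma), from a mean of 6.33 ± 2.83 (SD, n = 4) to 352.9 ± 398.9 (n = 5). The fatty acid receptor Cd36 rose by 2.48 (adjusted p = 0.000124), and the adaptor Tyrobp and the kinase Syk rose by 0.999 (adjusted p = 0.0217) and 0.92 (adjusted p = 0.0139). In Klrk1-/- mice SSD raised 10 of 23 and lowered 2, Mmp12 by 1.62 (adjusted p = 0.0124) upward and the proton pump subunit Atp6v0d2 by 1.18 (adjusted p = 0.0117) downward, with a median of 0.25.

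Between the SSD-fed genotypes 2 of these 24 genes were lower in Klrk1-/- mice, and without WT SSD mouse 1 the count was 6 lower. With all mice 13 of the 24 had an unadjusted p under 0.05, edgeR called 2 and DESeq2 called 9. Mmp12 fell by 3.39 on the log2 scale (adjusted p = 0.0228, limma) and the lysosomal marker Cd68 by 1.36 (adjusted p = 0.0135), whose means were 746.2 ± 246.5 (SD, n = 5) in WT SSD and 279.4 ± 10.1 (n = 3) in Klrk1-/- SSD mice. The same 2 genes were the ones whose response to SSD differed between genotypes, by -3.52 (adjusted p = 0.034) for Mmp12 and -1.57 (adjusted p = 0.0107) for Cd68. On NCD 2 of 23 were lower in Klrk1-/- mice, to be read against 6.66% of all genes. Abca1 had the largest fall (-0.63, adjusted p = 0.00409, limma).

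Monocyte and recruitment genes, a list of 18, rose in WT mice on SSD for 8 of the 15 tested (median 0.98), with Vcan at 2.06 (adjusted p = 0.0353, limma) the largest. Without WT SSD mouse 1, where Vcan was under the minimum mean, 6 of 14 rose. The monocyte chemokine receptor Ccr2 averaged 32.8 ± 6.48 (SD, n = 4) in WT NCD and 126.4 ± 90.7 (n = 5) in WT SSD mice, against 31.9 ± 6.63 (n = 4) and 42.4 ± 9.14 (n = 3) in Klrk1-/- mice. In Klrk1-/- mice 0 of 13 passed limma with SSD, 3 had an unadjusted p under 0.05, and edgeR and DESeq2 called 0. Between SSD-fed genotypes 0 of 15 passed limma with all mice (median -0.87), where 7 had an unadjusted p under 0.05 and edgeR called 0 and DESeq2 6, and 3 of 14 were lower without WT SSD mouse 1. On NCD 2 of 12 were lower in Klrk1-/- mice, to be read against 6.66% of all genes, with Csf1, a macrophage growth factor, at -0.79 (adjusted p = 0.00429, limma).

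Pan-macrophage transcripts moved with the members. In WT mice 7 of 10 rose with SSD, and 5 of 10 without mouse 1, where Adgre1 did not pass (0.48, adjusted p = 0.0706). The largest rise was that of Cd68 (1.89, adjusted p = 3.87e-05, limma), and Adgre1 went from 128.5 ± 21.4 (SD, n = 4) to 210.1 ± 75.1 (n = 5). The summed level of the 10 genes was 5387.1 to 6178.5 in WT NCD, 5781.3 to 12602.0 in WT SSD, 4279.3 to 5171.4 in Klrk1-/- NCD and 5051.3 to 6028.2 in Klrk1-/- SSD mice. Between SSD-fed genotypes Cd68 was lower in Klrk1-/- mice, as given above. Of the 11 Kupffer cell markers, 5 rose and 1 fell in WT mice on SSD, Cd5l most (1.54, adjusted p = 0.000787) and Nr1h3 downward (-0.44, adjusted p = 0.0022), and 1, the scavenger receptor Marco, was lower in Klrk1-/- SSD mice (-2.45, adjusted p = 0.0138); without WT SSD mouse 1 the counts were 4 and 1 with SSD, and 2 lower and 1 higher between genotypes. The defining Kupffer marker Clec4f averaged 2665.3 ± 953.4 (n = 5) and 2133.0 ± 327.6 (n = 3) in WT and Klrk1-/- SSD livers, and Vsig4 averaged 696.6 ± 254.8 and 424.5 ± 21.6; Clec4f did not pass the genotype test (-0.26, adjusted p = 0.552), nor did Vsig4 (-0.64, adjusted p = 0.169).

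To set members against the macrophage transcripts of the same liver, each was divided by Adgre1 or by Cd68, a ratio added after the values had been seen. Relative to Adgre1, Lgals3 was 6.51, 5.49, 3.30, 2.36 and 5.53 in WT SSD mice and 1.41, 1.46 and 0.94 in Klrk1-/- SSD mice, without overlap. Gpnmb relative to Adgre1 did not overlap either (0.623 to 5.03 against 0.0989 to 0.378), and nor did Trem2 (0.373 to 1.39 against 0.216 to 0.346), while the other 7 members overlapped, among them Itgax (0.315 to 1.02 against 0.225 to 0.340) and Cd63 (2.82 to 5.39 against 1.77 to 4.12). Relative to Cd68, which itself differed between the genotypes, Lgals3 was 0.745 to 1.82 in WT SSD and 0.531 to 0.731 in Klrk1-/- SSD mice, without overlap, and Cd9 was higher in each Klrk1-/- SSD mouse (4.24 to 4.43 against 1.42 to 2.04), while the other 8 members overlapped. These ratios are descriptions and were given no test. No share of all genes without overlap is given for the same ratios, so these counts of members cannot be read against one.

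**Figure D4:**
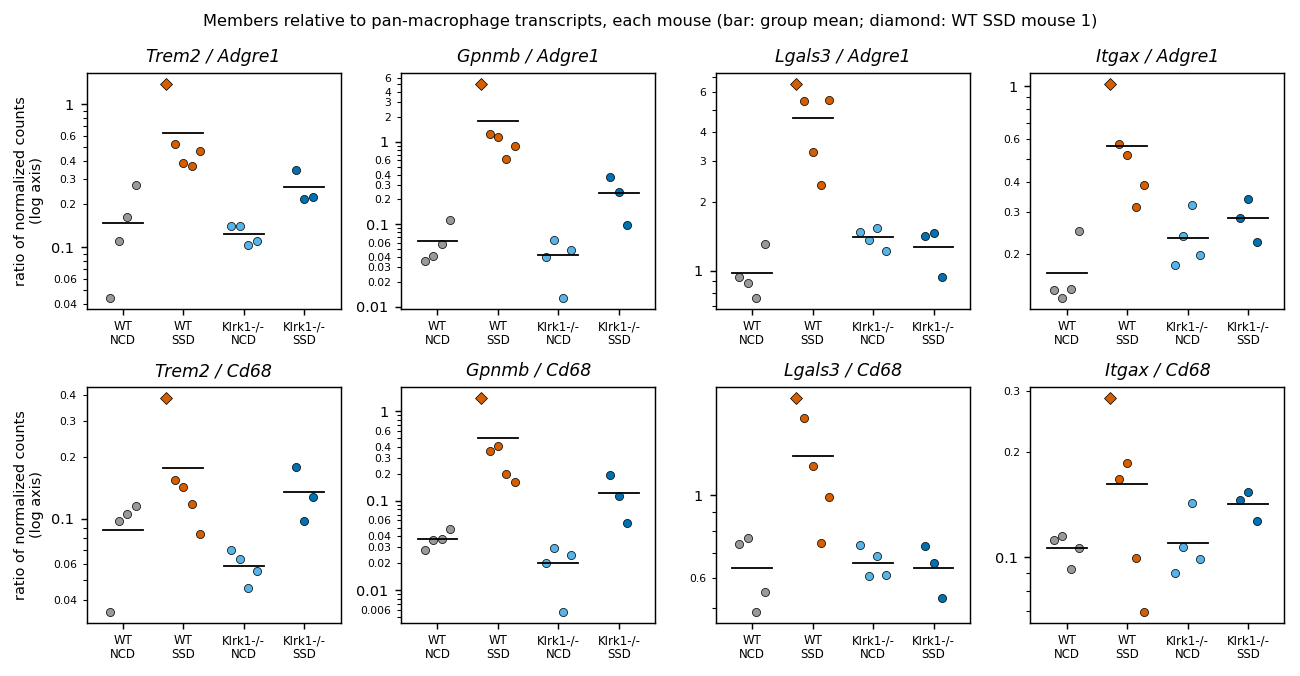
Ratio of Trem2, Gpnmb, Lgals3 and Itgax to Adgre1 (upper row) and to Cd68 (lower row) in every mouse, on log axes; bars are group means and the diamond is WT SSD mouse 1. Lgals3 over Adgre1 lies between 2.36 and 6.51 in WT SSD mice and between 0.94 and 1.46 in Klrk1-/- SSD mice, whereas Itgax over Cd68 overlaps between them.

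Markers of other cells were measured beside the members. In WT mice SSD raised 6 of 6 cell cycle genes, Ccnb1 most (3.18, adjusted p = 0.0026, limma), and between SSD-fed genotypes 4 of 6 were lower in Klrk1-/- mice, Ccnb1 by 3.20 (adjusted p = 0.0398). Mki67 averaged 314.1 ± 288.8 (SD, n = 5) in WT SSD and 33.2 ± 8.86 (n = 3) in Klrk1-/- SSD mice, and Top2a 172.6 ± 95.2 and 24.6 ± 6.62. Their part in the differences of the members was not tested. In WT mice on SSD 3 of 8 stellate cell and fibroblast markers rose, Col1a1 most (1.82, adjusted p = 0.0223, limma), as did 4 of 5 endothelial markers, Lyve1 most (0.94, adjusted p = 0.0297), and 3 of 8 dendritic cell markers, Flt3 most (1.499, adjusted p = 0.0354), while 2 of 6 hepatocyte markers fell, Cps1 by 1.19 (adjusted p = 0.000194). By edgeR and by DESeq2 the calls in these lists were 6 stellate, 4 endothelial, 4 dendritic and 3 hepatocyte markers. Of 3 neutrophil and 5 bile duct markers, 0 passed limma, 1 had an unadjusted p under 0.05, and edgeR and DESeq2 called 0. Of 5 T and NK cell markers, Trac rose (0.99, adjusted p = 0.0398) and Cd4 fell (-2.10, adjusted p = 2.62e-05); without mouse 1 Trac did not pass (0.94, adjusted p = 0.0628), 2 in place of 3 dendritic markers rose, Flt3 (adjusted p = 0.0645) no longer passing, and 1 neutrophil marker fell. Between SSD-fed genotypes 0 of the neutrophil (3), dendritic (9), T and NK (6), bile duct (5), stellate (8), endothelial (5), adipocyte (1) and hepatocyte (6) markers passed limma; 4 of these 43 genes had an unadjusted p under 0.05, edgeR called 0 and DESeq2 called 2. The adipocyte markers Adipoq and Plin1 were at 3 reads or fewer in all 16 mice, while Cfd, which the list also holds, ranged from 9.30 to 1255.5 in WT SSD mice and was lowest in mouse 1. Cfd, the 1 adipocyte marker tested, rose with SSD in WT mice (3.44, adjusted p = 0.0351, limma; 4.43, adjusted p = 0.00112 without mouse 1), and its part in the Lpl difference was not tested. Without that mouse Cfd was lower in Klrk1-/- SSD mice (-4.93, adjusted p = 0.0336).

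WT SSD mouse 1 stood apart in several of these lists too. Its summed stellate cell and fibroblast level of 26359.9 was above the 5682.5 to 11179.1 of the other WT SSD mice, its neutrophil sum of 296.9 above their highest of 158.1, its dendritic sum of 554.7 above 445.1, its cell cycle sum of 2320.3 above 1681.6 and its pan-macrophage sum of 12602.0 above 10281.5. Its T and NK cell sum of 174.0 was above their highest of 124.7, and its adipocyte sum of 13.3 was under their 77.3 to 1257.1. Its Kupffer sum of 19092.0 was closer to the highest of the others (17922.0), and its hepatocyte sum of 1436768.0 was the lowest of the group. Other sums of this mouse lay within the range of the others. These were bile duct (442.4, highest other 447.3), endothelium (3476.2, 3915.7), monocyte and recruitment (23413.2, 23669.6) and the TREM2 list (579312.0, 666850.1). A sum rests mostly on the most abundant genes of its list. The monocyte and TREM2 sums therefore do not show how scarcer genes, such as Ccr2 and Mmp12, stood in this mouse. The dendritic cell marker Flt3 was 42.5 in this mouse, against a group mean of 20.2 ± 14.3 (SD, n = 5). Their part in the high member levels of this mouse was not tested.

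**Figure D5:**
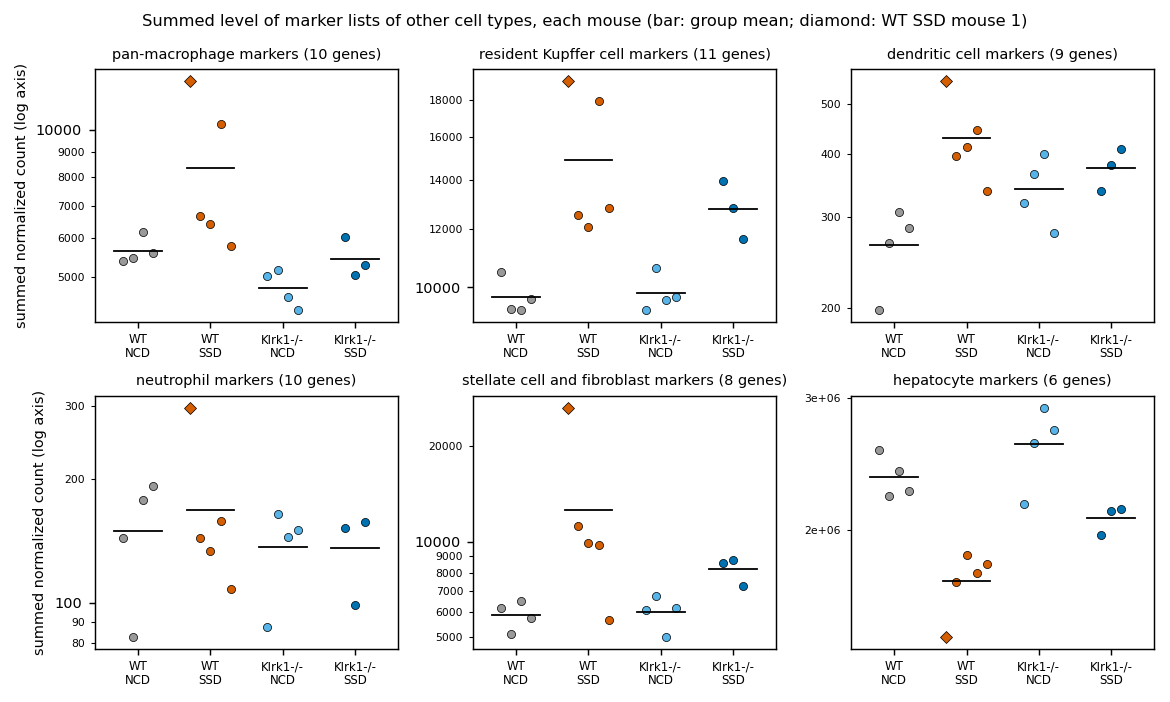
Summed normalized count of 6 marker lists of other liver cells in every mouse (log axes); bars are group means and the diamond is WT SSD mouse 1. That mouse is the highest of its group for the pan-macrophage, Kupffer, dendritic, neutrophil and stellate lists and the lowest for the hepatocyte list.

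Across the 8 SSD-fed mice the members were compared with their own mean. With each member centred and scaled, the mean member level was 2.01 in WT SSD mouse 1, between -0.33 and 0.18 in the other WT SSD mice and between -0.86 and -0.46 in the Klrk1-/- SSD mice. Trem2 (r = 0.974) and Itgax (r = 0.973) followed this mean most closely and Cd9 (r = 0.712) least. Without WT SSD mouse 1 r was 0.719 to 0.944 for 7 members, but 0.261 for Ly6c2, -0.407 for Cd9 and -0.419 for Lpl. Among 10939 genes with a mean of at least 50, the genes that are no members and were most like it were Itpripl2 (r = 0.991), Icam1 (0.990), Ptpn6 (0.989), Hmgn2 (0.987), Mapk3 (0.987), Cotl1 (0.987), Slc15a3 (0.987) and Robo2 (0.985). Their Spearman rho was 0.905 to 1.0, and r was 0.914 to 0.983 without mouse 1 and 0.861 to 0.992 without the 2 mice farthest from the median. These are descriptions over 8 libraries that share a diet, chosen as the highest of many, and carry no test.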

How the data were processed

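Whole-liver RNA of 16 mice was sequenced as single reads of 100 bases, 1 library per mouse, and the labels give each mouse's group. They name an mRNA kit and the study's methods a total RNA protocol. Per the authors, reads passed through FastQC and STAR (build GRCm39), and FeatureCounts assigned them to genes of GENCODE M26. The signal they deposited for each gene and mouse is a normalized count, a read count scaled by 1 factor per library. The deposited table also holds gene length, used here for levels per kilobase, and the fraction of G and C bases, for which no test was run. Dividing each column by its smallest step returned whole reads for 100.0% of values (tolerance 0.01), and 6948 genes had 0 reads in every mouse.

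The main test was limma 3.58.1 (R 4.3.3), trend method, on log2 of the normalized count plus 1. A fit held only the 2 groups it compared, or all 16 mice for the difference between diet effects. Genes with a mean of at least 10 were tested, p-values were adjusted by Benjamini-Hochberg over all of them, and calls are at 0.05 with no limit on the fold change. Error bars and intervals named as 95% come from the same fits. Each member was also tested alone by exact permutation of the mice, two-sided. P-values measure the spread between these mice only. The method was tested on simulated data, with no outcome given here. Alternatives were other pseudocounts (0.5, 10), other minimum means (0, 50), equal library totals, quantile normalization, count tests on the recovered reads (edgeR 4.0.16, DESeq2 1.42.0), a joint model of the 4 groups, a minimum fold of 1.5, a replicate block (with only mice whose number occurs in each group) and each mouse left out. All 10 members are named in every comparison. For each other list the called genes with the largest rise and fall are named (some results of the pan-macrophage list are not reported here), and for lists of other cells the first 2 genes where a result turns on them; Cd36, Tyrobp, Syk and Ccr2 were named after their values were seen. The members and lists were chosen with earlier results of these data known. Ratios to Adgre1 and Cd68, and counts of the other lists without WT SSD mouse 1, and the mice of the block fit without its term, were added after seeing the data.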

Additional observations from a re-analysis of the deposited data

Results flagged for a closer look

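In 10 of the 30 sets examined, each 1 member in 1 group of 4 or 5 mice, 1 mouse lay far from the rest by Dixon's ratio. This ratio is the gap to its nearest neighbour divided by the range of the group, on normalized counts without a log. Chance gives about 1 in 20 for a single set, but the members were measured in the same mice. The 30 sets are thus not independent, and 10 of 30 is not to be read against that share. In WT SSD the far mouse was mouse 1 each time, as the highest: Trem2 (0.921), Gpnmb (0.932), Cd63 (0.719), Lgals3 (0.792), Fabp5 (0.854), Lpl (0.931), Itgax (0.825) and Ly6c2 (0.908). In WT NCD mouse 3 was flagged as lowest for Lgals3 (0.961), at 103.0 against 126.9 to 127.9, or 79 reads against 106 to 127. Mouse 5 was flagged as highest for Itgax (0.918), at 24.3 against 19.1 to 19.6, or 22 reads against 15 to 19. In both cases the other mice lay very close together, which makes the ratio large though the gap is small in reads. The effect of SSD on Lgals3 differed between Klrk1-/- and WT mice by -2.57 on the log2 scale.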

How the results depend on the processing

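In WT mice 6 to 9 of the 10 members passed under every alternative (9 in the main fit); DESeq2 gave no adjusted p for Trem2, Gpnmb and Lpl there and called 6 of the others. Between SSD-fed genotypes 1 member passed, against 2 with all mice scaled to the same total, 2 by DESeq2 (which gave no adjusted p for Trem2, Gpnmb and Lpl), 4 with all 4 groups in 1 model, 5 with a replicate block (3 in the same mice with the block term left out) and 0 to 4 with 1 mouse left out (4 without WT SSD mouse 1, 3 without WT SSD mouse 5 and 0 without any one Klrk1-/- SSD mouse). On NCD 1 member passed, against 2 by edgeR, 0 with all 4 groups in 1 model and 0 to 2 with 1 mouse left out. In Klrk1-/- mice 7 passed, against 4 at a minimum mean of 50, which leaves Trem2, Gpnmb and Itgax untested, 5 with all 4 groups in 1 model and 9 with the same total. For the difference between diet effects the count was 1 in every fit.

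No called member changed direction. Estimates that were not called did so for Spp1 in WT mice (-0.03), to 0.32 with the same total, 0.077 by quantile normalization and -0.29 to 0.24 with 1 mouse left out, and in Klrk1-/- mice (-0.05), to 0.20 with the same total and -0.20 to 0.048 with 1 mouse left out. For Cd9 between SSD-fed genotypes (0.02) they were -0.093 with the same total, -0.0085 by quantile normalization, -0.0010 with the replicate block and equally with its term left out, and -0.039 to 0.13 with 1 mouse left out, and for Lpl there (-0.07) they ran from -0.30 to 0.50. On NCD, Trem2 (-0.25) was 0.069 in the mice of the replicate block, with or without its term, and Cd63 (0.04) was 0.22 with the block and ran from -0.080 to 0.13 with 1 mouse left out. The difference between diet effects ran from -0.29 to 0.24 for Spp1 and from -0.078 to 0.65 for Ly6c2. The cause of these changes was not tested.

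The labels give replicate numbers but do not say that they pair mice. Same-numbered mice deviated from their group means with correlations of -0.13 to 0.25, which do not settle whether the numbers pair mice. The block fit keeps only mice whose number occurs in each group compared, so it drops WT SSD mice 4 and 5 between SSD-fed genotypes and WT NCD mouse 5 and Klrk1-/- NCD mouse 4 on NCD. Between SSD-fed genotypes 160 genes were higher and 221 lower with all mice, 193 and 281 in the mice of the block with its term left out, a fit added after seeing the data, and 263 and 447 with the block. Without WT SSD mouse 1 they were 292 and 425, by DESeq2 535 and 685, and with all 4 groups in 1 model 420 and 529, but 59 and 90 without WT SSD mouse 3, 70 and 97 without mouse 2, 104 and 133 without mouse 4, and 15 and 30, 28 and 59, and 24 and 38 without Klrk1-/- SSD mouse 1, 2 and 3. For the difference between diet effects (42 higher, 73 lower) DESeq2 called 186 and 274, the block 13 and 38 and the same mice without its term 23 and 53. Normalized totals were higher on NCD (25001171 to 27985228) than on SSD (19222033 to 22666465), and scaling all mice to the same total moved the median of all genes to 0.34 in WT and 0.25 in Klrk1-/- mice on SSD and to -0.11 between SSD-fed genotypes. It turned 2265 higher and 2303 lower in WT mice into 6315 and 720, 1723 and 2067 in Klrk1-/- mice into 4828 and 806, and 160 and 221 between SSD-fed genotypes into 88 and 376; Lgals3 in Klrk1-/- mice then passed (0.52). Gpnmb and Trem2 on NCD rest on 1 to 24 reads per mouse, which limits their folds.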

Other observations

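Outside the comparison of SSD-fed genotypes, the lists of other liver cells gave these values. In Klrk1-/- mice SSD raised 4 of 8 stellate cell and fibroblast markers, Lrat most (0.72, adjusted p = 0.00698, limma), together with the bile duct marker Epcam (2.01-fold, adjusted p = 0.00889), the endothelial marker Pecam1 (0.44, adjusted p = 0.00939) and, of 6 cell cycle genes, Pcna (0.34, adjusted p = 0.0138). SSD lowered 3 of 6 hepatocyte markers in Klrk1-/- mice, Apoa1 most (-0.61, adjusted p = 0.017), and their summed level was 1968217.7 to 2130443.4 on SSD against 2165062.5 to 2911734.1 on NCD. Of the 11 Kupffer markers 2 rose and 1 fell in Klrk1-/- mice, the last being Nr1h3 (-0.26, adjusted p = 0.0276). The iron exporter Slc40a1, held by the Kupffer list, rose in both genotypes, by 1.32 in WT (adjusted p = 3.42e-06) and 1.25 in Klrk1-/- mice (adjusted p = 3.24e-06), and Cd4 fell in both, by 2.10 (adjusted p = 2.62e-05) and 1.92 (adjusted p = 0.000167). On NCD the Kupffer markers Clec1b (0.67, adjusted p = 0.0237) and Cd163 (0.53, adjusted p = 0.0259) were higher in Klrk1-/- mice and Marco (-0.77, adjusted p = 0.0375) was lower, so that Marco was lower on both diets. The pan-macrophage marker Aif1 was higher (0.54, adjusted p = 0.0474) in this comparison, Fcgr1 had the largest rise of its list with SSD in Klrk1-/- mice (0.56, adjusted p = 0.0333), and on NCD the endothelial marker Stab2 was higher in Klrk1-/- mice (0.52, adjusted p = 0.0287). For the difference between diet effects 3 of 6 cell cycle genes passed, Ccnb1 with the largest difference (-4.61, adjusted p = 0.0303).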
